A study of Mus musculus with 8 samples.

Results

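Alkbh5 knockout (KO) and wild-type (WT) pachytene spermatocytes were compared in 4 of the 8 samples of the series: 1 input and 1 immunoprecipitated library for each genotype of the cell fraction labelled PA. All animals were C57BL/6 mice of 12 weeks, either wild type or Alkbh5-/-, and the source was spermatogenic cells of the testis; the labels give neither the number of animals behind a library nor the way the cells were separated, and the series title supplies the reading of PA as pachytene spermatocytes and RO as round spermatids. Total RNA was broken into fragments of 100 to 200 nt, a part was pulled down with an antibody against N6-methyladenosine (m6A), and the unselected part served as input. With 1 library a side, nothing below has a replicate check and no test was made: every value describes these libraries. The intervals given are binomial 95% intervals that cover counting error only. They are exact for ratios and Wilson intervals for shares of peaks.

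N6-methyladenosine is a methyl group that a nuclear writer complex around Mettl3 and Mettl14 places on adenosines of mRNA and long noncoding RNA, mostly within a short consensus around the sequence GGACU. The erasers Alkbh5 and Fto remove it, and reader proteins with a YTH domain bind it and direct splicing, export, translation or decay. Pachytene spermatocytes are in the long stage of meiotic prophase in which homologous chromosomes are joined by the synaptonemal complex, crossovers mature, the X and Y chromosomes are silenced in the sex body and many mRNAs for later sperm building are made and stored. Male mice that lack Alkbh5 are known to be subfertile, with disturbed late spermatogenesis.

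The WT PA input held 13147239 counts and the KO PA input 9921365. Counts are printed as deposited; ratios were taken after scaling with TMM factors, which allow for depth and composition, so that a gene with a log2 ratio of 0 has 0.922 KO counts for each WT count. Ratios are given for genes with at least 100 counts in either library, and a change counts as past the threshold at 2-fold. A gene under 100 counts in 1 library passed only through the other, where its count was higher. Of 13167 genes with at least 100 counts in either library, 1784 (13.5%) had a KO level at least 2-fold above WT and 1799 (13.7%) a level at least 2-fold below. Symbols were available only for genes that carry a peak in at least 1 of the 4 peak lists of the series, and 6900 of the 13167 genes had a symbol. Among these named genes 706 (10.2%) were at least 2-fold higher and 864 (12.5%) lower, their median log2 ratio was -0.07, and 90% lay between -1.49 and 1.47. These are the backgrounds against which the gene lists below are read, and they varied with abundance. Of 2053 named genes with a higher count of 100 or more and under 300, 18.6% were higher and 13.6% lower (median 0.09). Of 2112 with a higher count of 1000 or more, 2.6% were higher and 14.2% lower (median -0.26). The gene lists were not matched to the background for abundance. Scaling by total counts instead moves all ratios up by 0.29 on the log2 scale (2666 genes higher, 1124 lower), with the 20 most abundant genes taking 16.4% of the counts of WT and 11.8% of those of KO. Alkbh5 itself has no symbol here and was not analysed, so the genotype labels were not checked on it.

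Labels and data were compared first. The summed level of the pachytene spermatocyte markers, in CPM (counts per 1000000 scaled counts), was 6646 for the WT and 3234 for the KO of PA, and 6013 and 3673 in RO. The inputs labelled PA therefore differed little from the RO inputs in these markers, and both KO inputs were below both WT inputs. The summed level of the spermatid markers was 404 CPM in the WT and 795 in the KO of PA, and 739 and 1428 in RO, so the KO PA input was at the level of the WT RO input. Genes with a peak in the WT PA list and not in the WT RO list had a median PA over RO input ratio of 0.18 on the log2 scale, against -0.07 for the reverse. In KO the same medians were -0.02 and 0.03, so the input counts do not separate the names of the 2 KO peak lists. In these samples a different share of cell types and a different level per cell cannot be told apart.

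At the top of the scale, among the 2112 named genes with at least 1000 counts in either library, KO PA was at least 2-fold above WT PA for 55 and below it for 299. H1fnt, the linker histone of elongating spermatids, had 119 counts in WT and 1236 in KO, a log2 ratio of 3.47 (interval 3.22 to 3.78). Akap4, the main protein of the fibrous sheath of the sperm tail, had 293 and 1270 counts (2.22, interval 2.05 to 2.42). Sox5, a transcription factor with a testis isoform, had 894 and 3224 counts (1.97, interval 1.86 to 2.08). The 12 highest genes of this group also included Cdc42ep3, an effector of the GTPase Cdc42 (391 and 1795 counts), and the ubiquitin ligase gene Trim36 (658 and 2314). The highest ratio belonged to AC091683.2, with 165 and 2508 counts (4.03).

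The lowest of the 12 lowest was Pou2f2, an octamer-binding transcription factor, with 1069 counts in WT and 136 in KO (log2 ratio -2.84, interval -3.13 to -2.60). Cntd1, a cyclin-like protein needed for crossover maturation in pachytene, had 2273 and 374 counts (-2.48, interval -2.65 to -2.33). Odf4, of the outer dense fibres of the tail, had 2060 and 362 counts (-2.39), and Izumo4, of the Izumo family of sperm proteins, 3008 and 573 (-2.27). The most abundant of them was Lrrc71, a gene of leucine-rich repeats, with 18466 and 3419 counts (-2.32). In the RO inputs 11 of the 12 lowest genes were also lower in KO, and the exception, Gm10800, had 1263 and 200 counts in PA but 109 and 145 in RO. All 12 of the highest genes were also higher in KO in RO, with log2 ratios of 0.52 to 2.81.

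**Figure D1:**
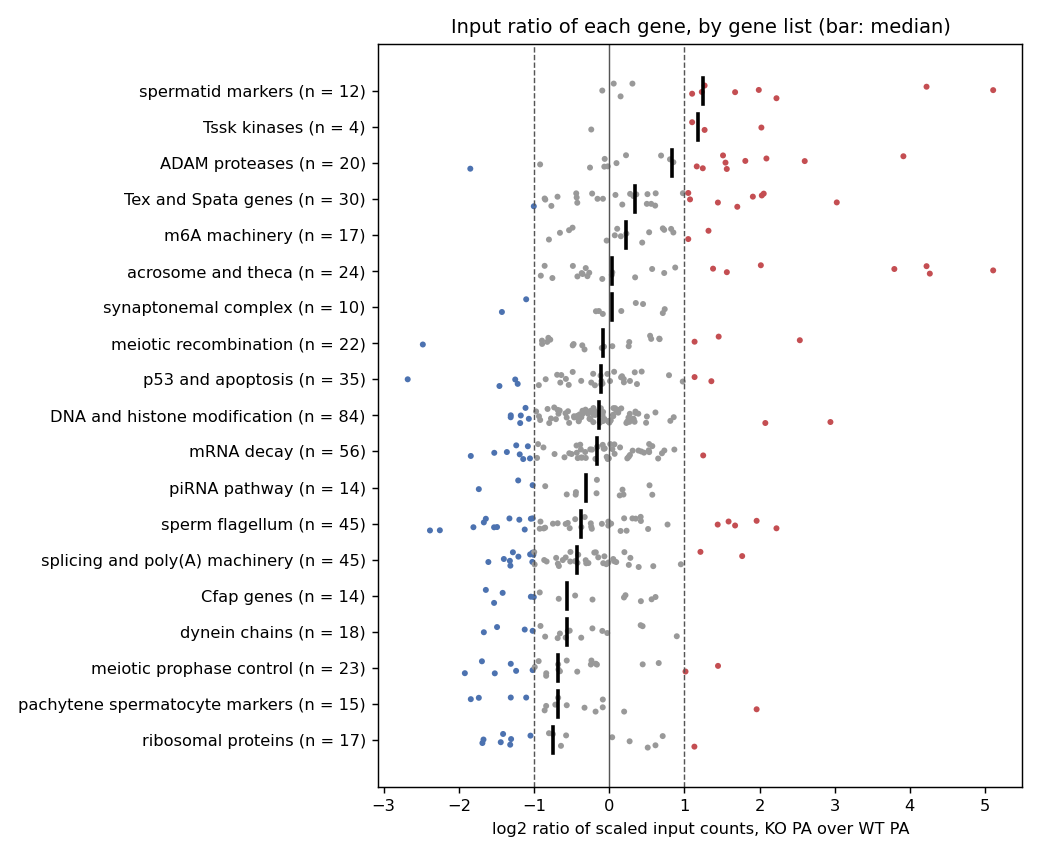
Log2 ratio of scaled input counts, KO PA over WT PA, for every gene with at least 100 counts in either library, by gene list; n is the number of genes, the black bar the median, dashed lines mark 2-fold, red points lie at or above it and blue points at or below it. The medians run from 1.25 for the spermatid markers to -0.75 for the ribosomal proteins.

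A part of the genes that act after meiosis was higher in KO. Of 25 spermatid markers 12 had a symbol and all 12 passed the count minimum; 8 were at least 2-fold higher, 0 were at least 2-fold lower and the median log2 ratio was 1.25 (named genes: 10.2%, 12.5% and -0.07). With at least 100 counts required in both libraries 5 stayed at least 2-fold higher. Prm2, the protamine that packs the sperm genome, had 947 (WT) and 2053 (KO) counts in PA (1.23, interval 1.12 to 1.35), and 1226 and 3730 in the RO inputs. Tnp2, the transition protein that precedes the protamines, had 162 and 599 counts in PA and 218 and 1391 in RO. Odf1, of the outer dense fibres, had 321 and 949 counts in PA and 582 and 1705 in RO. For these genes both KO inputs were above their WT partner, and KO PA was above WT RO.

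Other spermatid markers were close to even in PA. Prm3, an acidic neighbour of the protamines, had 385 and 370 counts (log2 ratio 0.06), and Smcp, of the mitochondrial capsule of the midpiece, 1046 and 1071 (0.15). Catsper1, a subunit of the sperm calcium channel, had 737 and 842 counts (0.31), and Acrv1, of the acrosome, 642 and 555 (-0.09). Acrv1, Prm3 and Catsper1 were lower in KO in RO, with log2 ratios of -0.81, -0.62 and -0.79. Spermatid mRNAs therefore did not move as a block in either fraction.

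The acrosome, the vesicle over the sperm nucleus, and the perinuclear theca, the cytoskeletal shell beneath it, gave a split list. Of 24 genes 7 were at least 2-fold higher, 0 lower, and the median was 0.04; with at least 100 counts required in both libraries 2 stayed higher, since the others passed the count minimum only through KO. Among the higher genes Cylc1, which encodes cylicin, had 20 and 378 counts in PA and 46 and 743 in RO, a log2 ratio of 4.22 and 4.03. Actrt2 had 15 and 301 counts in PA (4.27), and Capza3, an actin-capping subunit of the germ line, 104 and 394 (2.02). Actrt3 had 2 and 128 counts in PA, a scaled KO over WT ratio of 69.4 with an interval of 18.8 to 579; in RO it had 60 and 125. Fam209, a gene of acrosome formation, had 45 and 600 counts (3.79). The 6 actin-like genes named here, a set picked after its values were seen (Actrt2, Actrt3, Actl7a, Actl7b, Actl10 and Actl11), had log2 ratios of 1.38 to 5.11 in PA; apart from Actl7b they had under 100 counts in WT and passed the count minimum only through KO.

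Other acrosome genes did not pass 2-fold. Acr, the protease acrosin, had 515 and 339 counts (log2 ratio -0.48), its binding protein Acrbp 783 and 590 (-0.29), and the hyaluronidase gene Spam1 335 and 514 (0.73). Genes of Golgi traffic that shape the acrosome also lay near 0: Gopc had 1039 and 981 counts (0.03) and Golga3 3225 and 2307 (-0.37). The lowest were Gba2, a glucosylceramidase (701 and 343, -0.91), Spata16, needed for acrosome formation (2808 and 1426, -0.86) and Crisp2 (2233 and 1218, -0.76).

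**Figure D2:**
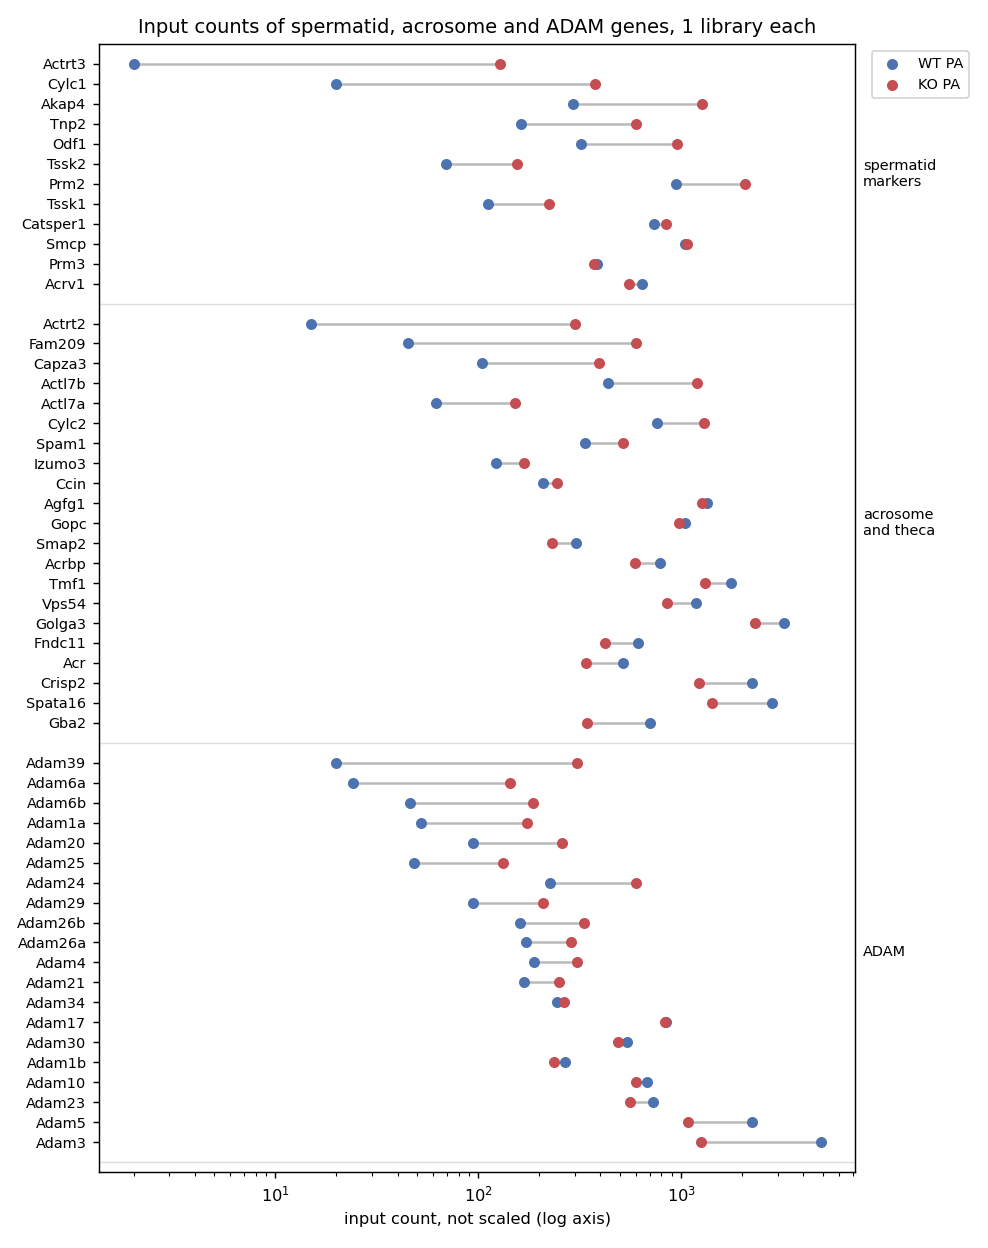
Deposited input counts (log axis, not scaled) of the spermatid markers, the acrosome and theca genes and the ADAM genes in the WT PA library (blue) and the KO PA library (red), 1 library each. Actrt3 goes from 2 to 128 counts and Cylc1 from 20 to 378, while Acr, Acrv1 and Prm3 lie close together and Adam3 lies on the other side, with 4880 and 1248.

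ADAM genes encode membrane metalloproteases, several of which are made in the testis and work in sperm migration and egg binding. Of 20 named members 9 were at least 2-fold higher in KO PA and 1 lower, with a median of 0.83. Adam39 had 20 and 305 counts (3.91), Adam6a 24 and 144 (2.60) and Adam24 225 and 596 (1.51). Adam3, a surface protein that sperm need to enter the oviduct, went the other way with 4880 and 1248 counts (-1.85, interval -1.94 to -1.76), and Adam5 had 2228 and 1085 (-0.92). The widely expressed Adam10 and Adam17 had log2 ratios of -0.07 and 0.10. The split followed gene length in the genome, a division made after the values were seen: of 13 members with a RefSeq span of up to 10 kb, 8 were at least 2-fold higher and 0 lower (median 1.51), and of 7 longer ones 1 was higher and 1 lower (median -0.07). Most of the higher members had under 100 counts in WT; with at least 100 counts required in both libraries, 2 ADAM genes stayed at least 2-fold higher. In RO, where 9.84% of the same 6900 named genes were at least 2-fold higher and 11.7% lower, 2 ADAM genes were higher and 1 lower.

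The testis-specific serine kinases, which act in late spermatids, had 4 members: Tssk3 with 116 and 441 counts (2.02), Tssk2 with 69 and 156 (1.27), Tssk1 with 112 and 224 (1.10) and Tssk4 with 154 and 120 (-0.24). Tssk2 passed the count minimum only through KO. Of 30 genes named Tex or Spata, which were named for expression in testis, 8 were at least 2-fold higher and 1 lower, with a median of 0.34. The highest was the X-linked Tex13c1 with 14 and 119 counts (3.03), which passed the count minimum only through KO. The 1 lower gene was Spata4 with 1220 and 560. Chaperones were also split: 7 of 42 heat shock and chaperonin genes were at least 2-fold higher and 2 lower, around a median of -0.09. Hspa1l, the Hsp70 of spermatids, had 109 and 655 counts in PA and 302 and 1510 in RO (2.68 and 2.39). Hspa2, the Hsp70 of pachytene spermatocytes, had 3023 and 1557 counts in PA (-0.84).

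The sperm flagellum list had both directions at once. Of 45 genes 5 were at least 2-fold higher, 12 at least 2-fold lower, and the median was -0.37. The 5 higher genes belong to the fibrous sheath, the outer dense fibres and the energy supply of the tail: Akap4 (given above), Akap3 with 573 and 1592 counts (1.59), Ropn1, which docks on the A-kinase anchors, with 104 and 264 (1.44), Odf1 (above) and Pgk2, the glycolytic kinase of sperm, with 111 and 404 (1.96). The lowest of the 12 lower genes was Odf4, given above, also of the outer dense fibres. Dnah2, an inner-arm dynein heavy chain, had 22966 and 6660 counts (-1.67, interval -1.71 to -1.63), Dnah17, an outer-arm chain, 27966 and 11825 (-1.12), and Catsperg1, an accessory subunit of the calcium channel, 11282 and 2971 (-1.81). Sept12, a septin of the ring between the midpiece and the rest of the tail, had 6003 and 1159 (-2.25), and Ift140, of intraflagellar transport, 4436 and 1628 (-1.33).

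Dyneins and cilia and flagella associated (Cfap) genes, some of them also in the flagellum list, had no gene at least 2-fold higher. Of all named genes 10.2% were higher and 12.5% lower (median -0.07). Of those with a higher count of 1000 or more, 2.6% were higher and 14.2% lower (median -0.26). Of 18 dynein genes 4 were at least 2-fold lower (Dnah1, Dnah2, Dnah14 and Dnah17) and 15 had a ratio below 0, with a median of -0.57; under scaling by total counts 1 was higher and 2 lower. The most abundant, Dnah8, had 56747 and 28968 counts (-0.85). Dnah3 was the axonemal exception with 4756 and 5860 (0.42), and the cytoplasmic chain Dync1h1 had 12276 and 9691 (-0.22). Of 14 Cfap genes 5 were at least 2-fold lower (median -0.56), led by Cfap70 with 5860 and 1730 counts (-1.64) and Cfap74 with 24330 and 7755 (-1.53). In RO 7 dynein genes and 4 Cfap genes were at least 2-fold lower, with Dnah2 at -1.81 and Cfap74 at -1.32.

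**Figure D3:**
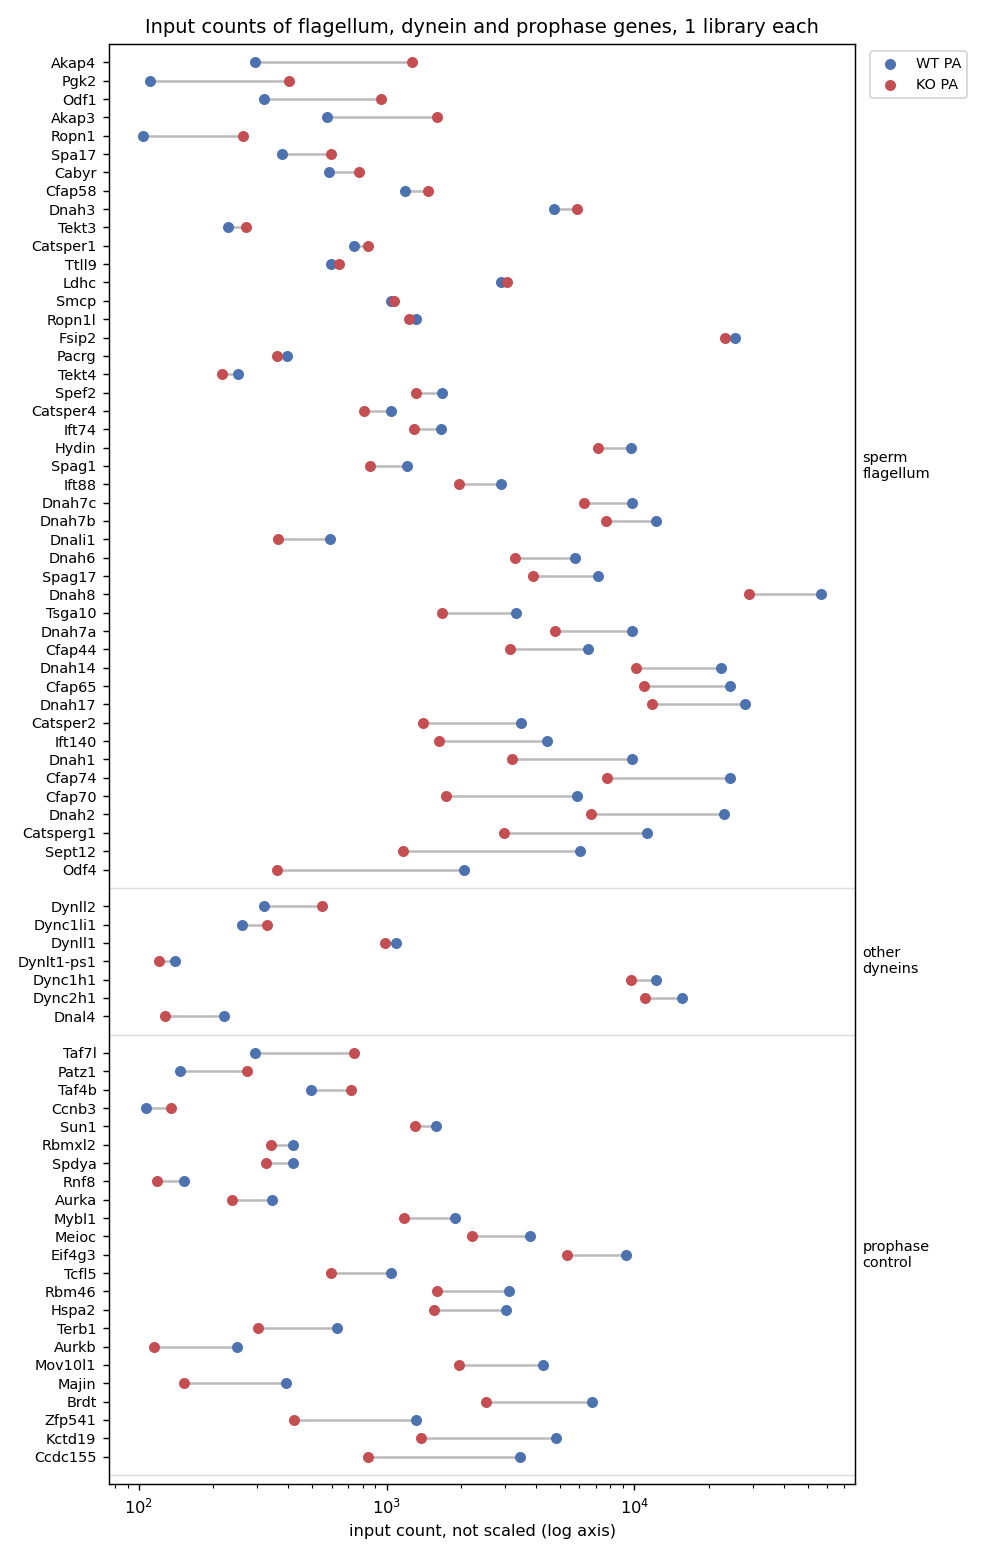
Deposited input counts (log axis, not scaled) of genes of the sperm flagellum, the remaining dyneins and meiotic prophase control in WT PA (blue) and KO PA (red), 1 library each. In the flagellum list red lies to the right for Akap4, Odf1, Akap3, Ropn1 and Pgk2 and to the left for most dynein, Cfap and channel genes.

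Meiotic genes had members past 2-fold in both directions. Of 10 genes of the synaptonemal complex and chromosome axis 0 were at least 2-fold higher and 2 lower, with a median of 0.04. Sycp1, the transverse filament, had 4219 and 3666 counts (-0.09), and the meiotic cohesin gene Smc1b 4139 and 4265 (0.16). The 2 lower genes were Sycp2, of the lateral element, with 20841 and 8932 (-1.11, interval -1.14 to -1.07), and Syce1, of the central element, with 1810 and 619 (-1.43). Syce1 was even in RO (1292 and 1170, -0.07) and Sycp2 had a log2 ratio of -0.71.

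In the 22 recombination genes 3 were at least 2-fold higher and 1 lower, with a median of -0.08. The higher genes included H2afx, the histone variant that marks DNA breaks and the sex body (83 and 453 counts, 2.54), and Atm, the break-response kinase (1005 and 2038, 1.14, RO 1.21). H2afx passed the count minimum only through KO. Cntd1, given above, was the lower gene. Brca1 had 2158 and 2901 counts (0.54), Brca2 2728 and 2588 (0.04), Prdm9, which sets the sites of breaks, 272 and 234 (-0.10), and the helicase gene Blm 750 and 371 (-0.90).

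Most regulators of pachytene had a ratio below 0, and most did not pass 2-fold. In the list of meiotic prophase control 2 of 23 genes were at least 2-fold higher, 6 lower, and 19 had a ratio below 0, with a median of -0.68. The lower genes included Ccdc155, which ties telomeres to dynein for chromosome movement (3452 and 839 counts, -1.92), Kctd19 and Zfp541, partners in leaving pachytene (4819 and 1372, -1.69; 1319 and 422, -1.52), and Brdt, the testis bromodomain protein (6753 and 2510, -1.31). Taf7l, an X-linked gene for a germ-cell subunit of the transcription factor TFIID, was the highest with 293 and 740 (1.45). The piRNA pathway, in which small RNAs silence transposons and clear mRNA in germ granules, had 0 of 14 genes at least 2-fold higher and 3 lower, with a median of -0.31. Tdrd6, a scaffold of the granule, had 22648 and 6270 counts (-1.74), Tdrd5 2931 and 1166 (-1.21) and Mov10l1, a helicase of piRNA biogenesis, 4291 and 1951 (-1.02).

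The pachytene marker list had 15 of 23 members with a symbol; 1 was at least 2-fold higher (Pgk2), 4 lower and 13 below 0, with a median of -0.68. Ybx2, which binds and stores mRNA in spermatocytes and spermatids, had 5507 and 1415 counts (-1.84; RO -1.18), and Mybl1, the transcription factor that switches on pachytene genes, 1895 and 1180 (-0.57). Ldhc, the lactate dehydrogenase of germ cells, stayed even with 2900 and 3068 (0.20).

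In the m6A machinery 2 of 17 genes were at least 2-fold higher, 0 lower, and the median was 0.23. Fto, the eraser related to Alkbh5, had 1675 and 3860 counts in PA (1.32, interval 1.24 to 1.41), and 2926 and 3504 in RO (0.33). Among the writer complex, Cbll1 had 337 and 646 counts (1.05), Wtap 229 and 383 (0.85) and Zc3h13 3799 and 6200 (0.82), whereas Virma had 2191 and 1394 (-0.53) and Rbm15 1853 and 1668 (-0.03). The YTH readers lay from 0.11 (Ythdf3, 1441 and 1430) to 0.73 (Ythdf2, 286 and 439). The lowest member was Prrc2a, a reader, with 11000 and 5815 (-0.80; RO -0.93). Under scaling by total counts 5 of the 17 were at least 2-fold higher.

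In genes of mRNA processing most members did not pass 2-fold. Of 45 splicing and poly(A) genes 2 were at least 2-fold higher and 10 lower, and 34 lay below 0 (median -0.42); scaling by total counts left 4 lower and 3 higher. Snrnp70, of the U1 particle, had 11155 and 3890 counts (-1.40), Srsf5 14913 and 5524 (-1.32) and Srsf1 6027 and 2738 (-1.02). Sf3b4, of the U2 particle, had 59 and 190 (1.77) in PA and 236 and 128 in RO. In mRNA decay and translation control 1 of 56 genes was at least 2-fold higher and 8 lower (median -0.16). Ybx2, Ybx3 (4269 and 1362, -1.53) and the Argonaute gene Ago4 (862 and 308, -1.36) were the lowest, and Eif4ebp2, an inhibitor of cap binding, the highest (209 and 461, 1.25).

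Few chromatin modifiers passed 2-fold: 2 of 84 genes were at least 2-fold higher and 6 lower, with a median of -0.14. The 2 higher genes were the histone H3 lysine 9 methyltransferase genes Suv39h2 (46 and 339 counts, 2.94) and the X-linked Suv39h1 (56 and 224, 2.08). Both passed the count minimum in PA only through KO, and both were also higher in RO (1.19 and 1.09). Among the lower were Setd1b, a lysine 4 methyltransferase (1723 and 639, -1.31), and the remodeller gene Chd9 (2925 and 1185, -1.19), which was even in RO (-0.06). In the p53 and apoptosis list 2 of 35 were at least 2-fold higher and 4 lower (median -0.11). The mitochondrial protease gene Htra2 had 561 and 79 counts (-2.68), Btg2, an antiproliferative target of p53, 2925 and 1132 (-1.25; RO 0.45), and the proapoptotic Bcl2l14 222 and 528 (1.36).

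Ribosomal protein genes had the lowest median of the lists in the plot of ratios by list, -0.75, with 1 of 17 at least 2-fold higher and 7 lower, against a median of 0.12 in RO. Rpl41 had 630 and 179 counts in PA (-1.69) and Rplp0 558 and 160 (-1.67). These genes have many processed copies in the genome, and how reads shared with copies were counted is not given in the sources used here. Mitochondrially encoded genes had 1 of 9 at least 2-fold higher and 2 lower; mt-Nd1, of complex I, had 6539 and 9114 counts (0.60), and the ribosomal RNA genes mt-Rnr1 and mt-Rnr2 had 105 and 31 (-1.58) and 156 and 66 (-1.10). Glycolysis was even, with 2 of 20 at least 2-fold higher and 1 lower.

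Large families differed in how close they were to the background of 10.2% higher and 12.5% lower. Predicted genes named Gm had 21.7% of 457 at least 2-fold higher and 26.9% lower, and Riken clones 20.2% and 19.6% of 377. Of 262 zinc finger genes 20 were at least 2-fold higher and 30 lower (median -0.04), although the extremes were wide: Zfp819 had 9 and 176 counts (4.12) and Zfp383 138 and 11 (-3.32). Of 108 solute carriers 5 were higher and 18 lower, and of 37 ubiquitin-specific proteases 2 were higher and 1 lower. The 2 higher proteases were Usp26, on the X (93 and 555 counts, 2.67), and Usp9y, on the Y (186 and 887, 2.36). Kinesins had 1 of 25 past 2-fold, Kif2b, a microtubule depolymerase (242 and 811, 1.85). Of 52 Tmem genes 11 were at least 2-fold higher and 4 lower (median 0.20). Among named genes with at least 100 counts in either library, 6 had no count at all in 1 PA input. These 6 were Akr1b7 (0 and 120) and Gm8232 (0 and 379) in WT and 1700061E17Rik (231 and 0), 2610507I01Rik (131 and 0), Gm11696 (115 and 0) and Gm33053 (100 and 0) in KO. Against a floor of 3 counts in the empty library these were at least 43.4-fold and 137-fold higher in KO, and at least 71.0-fold, 40.3-fold, 35.3-fold and 30.7-fold higher in WT. Despite an input count of 0, Gm8232 had 1 peak in the WT PA list and 1700061E17Rik 1 peak in the KO PA list. For these 2 genes counts and peaks disagree, and the reason was not tested.

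The X chromosome, silenced in pachytene and in part active again after meiosis, stood above the autosomes. Of 157 named X-linked genes 40 (25.5%) were at least 2-fold higher in KO PA and 7 lower, with a median of 0.43; of 6727 autosomal genes 663 (9.86%) were higher and 853 (12.7%) lower, with a median of -0.08. The X median in RO was 0.65, and 30 X-linked genes were at least 2-fold higher in both fractions. The X genes with the largest ratios were Gm4994 (2 and 236 counts), Cylc1, 4933436I01Rik (47 and 453, 3.33), 4930513O06Rik (21 and 201, 3.25), Tex13c1 and Usp26. All of these had under 100 counts in WT and passed the count minimum only through KO. How many of the 40 higher X-linked genes did so is not given here. The lower genes included Tceal8 (169 and 39, -1.95; RO 1.07). The spermatid marker sum, 404 CPM in WT and 795 CPM in KO, was also higher in KO. This sum includes the X-linked Akap4 and Cylc1, and its part in the X result was not tested.

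Gene length was looked at after the values were seen. Of 6146 protein-coding named genes with a RefSeq span, 575 (9.36%) were at least 2-fold higher and 667 (10.9%) lower. Among the 124 with a span of up to 2 kb, 58 were at least 2-fold higher and 15 lower, with a median of 0.59; in the longer classes the medians lay between -0.18 and 0.04. On the autosomes alone the short class had 52 of 115 genes higher and 15 lower (median 0.48), so the X accounts for 6 of the 58. Hsfy2, a heat shock factor relative of the testis, had 13 and 440 counts (4.99), BC048507 83 and 784 (3.32), Hmgb4 97 and 363 (2.00) and Cox8c, a testis subunit of cytochrome oxidase, 84 and 433 (2.45). The short genes that were lower included Cetn1, the testis centrin (2685 and 799, -1.63), and Tmsb10 (735 and 254, -1.41). With at least 100 counts in both libraries the short class was 0.13 above the median of all protein-coding genes, against 0.65 here, so the excess rests on genes with under 100 counts in 1 of the libraries. In RO the median of the short class was 0.23.

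**Figure D4:**
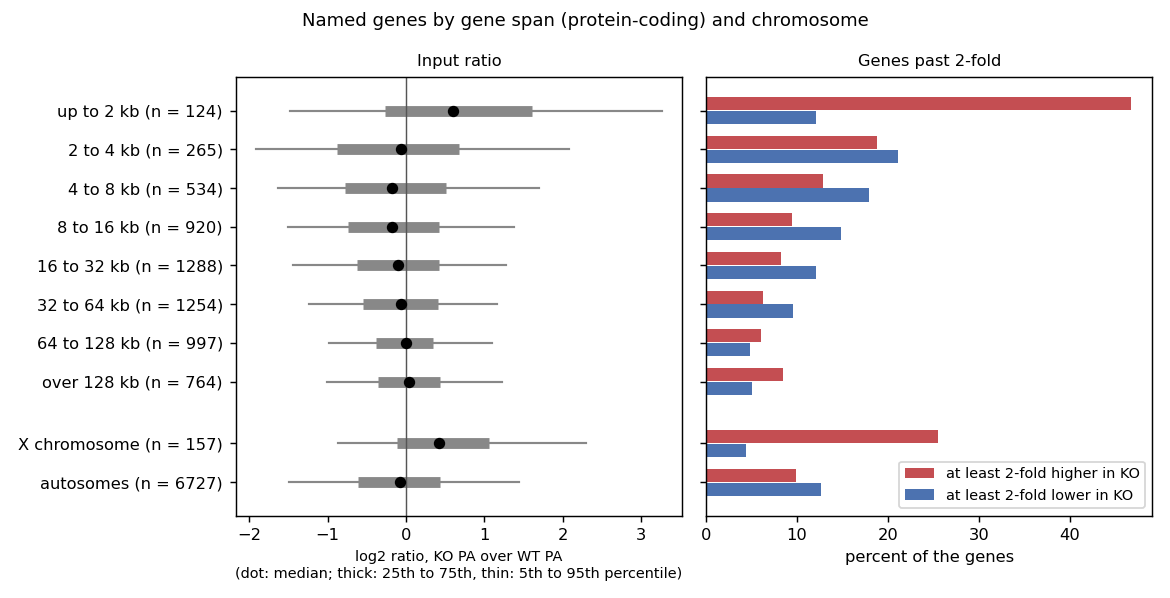
Left, log2 ratio KO PA over WT PA of named genes by RefSeq span (protein-coding genes) and by chromosome, with the median (dot), the 25th to 75th percentile (thick line) and the 5th to 95th percentile (thin line); right, the percent of genes at least 2-fold higher (red) or lower (blue). Genes of up to 2 kb (58 of 124 higher) and X-linked genes (40 of 157 higher) stand apart from the other classes.

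Markers of other testis cells differed between the inputs as well. The Leydig cell list, genes of steroid synthesis, summed to 350 CPM (WT) and 202 CPM (KO) in PA, and to 142 and 120 CPM in RO; 7 of 16 members had a symbol, 4 were at least 2-fold lower and 2 higher. Cyp11a1, the enzyme that cleaves the cholesterol side chain, had 876 and 226 counts (-1.83), Hsd3b1 722 and 207 (-1.68), Lhcgr, the receptor for luteinizing hormone, 223 and 57 (-1.82) and Nr5a1 609 and 199 (-1.49). The cytochrome P450 and glucuronosyltransferase family, with 4 of 5 at least 2-fold lower and a median of -1.35, contains Cyp11a1 and Cyp27a1 (571 and 256, -1.03). The part of Leydig cell RNA in the values of other genes was not tested.

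Endothelial markers summed to 320 (WT) and 493 (KO) CPM in PA, and to 144 and 484 in RO, with 2 of 10 at least 2-fold higher and 1 lower. Eng, a coreceptor of vessels, had 111 and 269 counts (1.38), and Esam, an adhesion molecule, 290 and 122 (-1.12). Sertoli markers summed to 541 and 670 CPM, with 0 of 8 past 2-fold in either direction; Wt1 had 1049 and 1356 counts (0.49). Peritubular and muscle markers summed to 837 and 692 CPM, with 0 of 6 past 2-fold, and Myh11 had 3347 and 2943 (-0.07). Macrophage genes summed to 46.7 and 75.3 CPM from 3 named members, with Csf1r at 25 and 133 counts. Early germ cell markers summed to 79.1 and 118 CPM. All these lists were above 0 in both PA inputs, and none of the 6 erythroid markers had a symbol.

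The m6A peak lists of PA held 7502 peaks in 4710 genes for WT and 9931 peaks in 6084 genes for KO, a ratio of 1.32 (interval 1.28 to 1.36). A peak's fold is the authors' value of enrichment over input in its own list; it was used to rank peaks within a list. Of 6826 genes with a peak in either list, 2116 (31%) had it in KO only and 742 (10.9%) in WT only, and 3968 in both. A counterpart in KO was found for 79.7% of the WT peaks and a counterpart in WT for 56.6% of the KO peaks. KO peaks were longer, with a median exonic length of 269 bp against 240 bp, and more of them spanned several exon blocks, 21.2% (20.5% to 22.1%) against 13.8% (13.1% to 14.6%). Read counts of the pulled-down RNA were not analysed here, so the depth behind the 2 lists is unknown.

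To set peaks apart from input level, genes with at least 100 counts in both inputs and a log2 ratio under 0.5 in size were taken. Of 2737 such genes with a peak, 739 (27%) had it in KO only and 162 (5.92%) in WT only, and their peak ratio was 1.31 (1.25 to 1.36), against 1.32 over all genes. Genes at least 2-fold higher in the KO input had a peak ratio of 2.06 (1.82 to 2.33), with 386 WT and 796 KO peaks. Genes at least 2-fold lower still had more peaks in KO, 818 against 713 (1.15, 1.04 to 1.27). Because symbols come from the peak lists, named genes with a high KO input are more likely to be named through a KO peak. Of 183 X-linked genes with a peak, 93 (50.8%) had it in KO only, 14 (7.65%) in WT only and 76 in both. Over all genes with a peak the shares were 31% in KO only and 10.9% in WT only.

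Peak ratios of the gene lists are read against the 1.32 over all peaks. Their counts of genes are read against 31% in KO only and 10.9% in WT only over all genes with a peak. Collagens and laminins, matrix proteins, had 9 peaks in WT and 23 in KO (2.56, interval 1.14 to 6.28), with 11 genes in KO only and 0 in WT only, although their input median was 0.02. ADAM genes had 14 and 31 peaks (2.21, 1.14 to 4.50), among them Adam6b with 1 and 3 and Adam20 with 0 and 2. The flagellum list had 38 and 63 peaks (1.66, 1.09 to 2.55), and 15 of its 35 genes with a peak had it in KO only against 1 in WT only. Dnah1, Dnah2 and Dnah14 each had 0 peaks in WT and 1 in KO while their input counts were lower in KO, and Dync1h1 had 1 and 4. Akap3, with higher input, had 0 and 2. All these intervals include the ratio over all peaks, 1.32.

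Coiled-coil Ccdc genes had 82 and 121 peaks (1.48), splicing genes 47 and 68 (1.45), and chromatin modifiers 197 and 255 (1.29, 1.07 to 1.57). In the chromatin list Kmt2a, a lysine 4 methyltransferase, had 9 and 13 peaks, Arid1b, of the SWI/SNF remodeller, 2 and 6, and Setd1b 3 and 6 at a lower input. The m6A machinery had 33 and 38 peaks (1.15), with Ythdc1 at 5 and 6, Zc3h13 at 4 and 5 and Virma at 4 and 3. Zinc finger genes had 412 and 472 peaks (1.15, with an upper bound of 1.31, just under the 1.32 over all peaks). Recombination genes had 43 and 53 peaks, of which Brca2 alone had 6 and 12. Mitochondrially encoded genes had 7 and 2 peaks (0.29, 0.03 to 1.50): mt-Cytb, mt-Nd1, mt-Nd6, mt-Rnr1 and mt-Rnr2 had a peak in WT only.

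**Figure D5:**
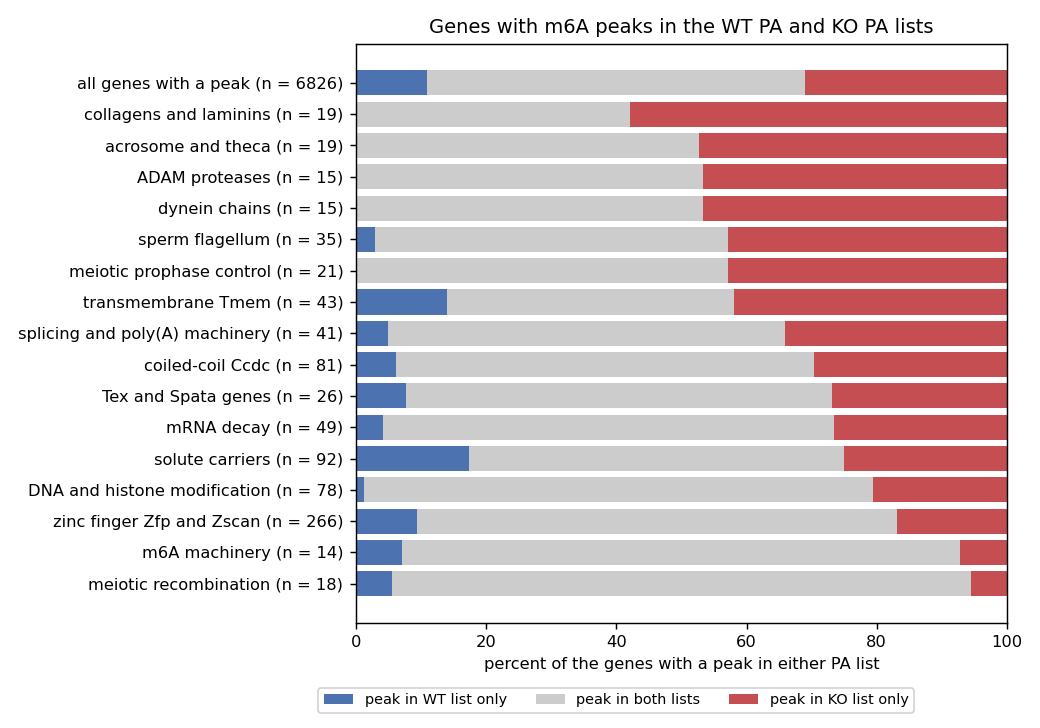
Percent of the genes with a peak in either PA list whose peaks are in the WT list only (blue), in both (grey) or in the KO list only (red), for all genes and for 16 gene lists; n is the number of genes with a peak. Over all genes 31% are red and 10.9% blue; collagens and laminins have 11 of 19 genes in red, the m6A machinery 1 of 14.

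Single genes show the contrast at even input. The highest-fold peaks found in KO only lay in Pcmtd1, Dusp18, Smarcad1, Hspg2, Ccdc146, Oprl1, Fmnl2, Cacna1b, Myh15 and Gm28187, with folds of 54.5 to 78.6. In Pcmtd1, of the methyltransferase-domain family, the peak had a fold of 78.6 over 330 bp of coding exon between chr1:7089190-7120496 (mm10, plus strand), with 513 WT and 479 KO input counts. In Smarcad1, a chromatin remodeller that works at DNA ends, a coding peak of fold 64.3 lay at chr6:65074781-65075020 (plus strand), with 1471 and 1284 counts. In Hspg2, perlecan of the basement membrane, a 3′ UTR peak of fold 61.3 lay at chr4:137569520-137570000, with 1780 and 2215 counts. Of the 10 genes only Fmnl2, a formin, had no peak in either RO list. Pcmtd1, Dusp18, Smarcad1, Hspg2, Ccdc146 and Oprl1 had a peak in the WT RO list as well as in the KO RO list. Ccdc146 and Oprl1 each had 2 peaks in WT RO and 1 in KO RO. For these genes a peak in KO only was thus seen in PA and not in RO.

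The reverse set, with a peak in WT only, was Dclre1c, Khnyn, Gm9165, Thumpd2, Mbd1, Bcl9, Entpd1, Strbp, Zscan25 and BC030867, with folds of 29.5 to 86.4. In Dclre1c, the Artemis nuclease of DNA end joining, a coding peak of fold 86.4 and 570 bp lay at chr2:3452864-3453433 (plus strand), with 736 and 674 input counts; it had no peak in WT RO and 1 in KO RO. In Strbp, which binds double-stranded RNA in spermatids, a 3′ UTR peak of fold 31.4 lay at chr2:37569914-37570304 (minus strand), with 6179 and 5134 counts. Khnyn, a cofactor of the zinc finger antiviral protein, had a 3′ UTR peak of fold 58.0 and 1076 and 763 counts.

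The largest gains in peak number were in Ttn, Amer2, Zfhx3, Brca2 and the lincRNA 4930571K23Rik. Ttn, the giant muscle protein titin, went from 6 peaks over 996 exonic bp in WT to 15 over 4485 bp in KO, at 6697 and 8006 input counts; in RO it had 9 and 8 peaks. The lincRNA went from 4 to 10 peaks (RO 5 and 6). Amer2 went from 3 to 11, Zfhx3 from 6 to 13, Brca2 from 6 to 12 and Cep350, of the centrosome, from 7 to 12. Brca2 and Cep350 had even input (0.04 and -0.03 on the log2 scale), whereas Amer2 was higher in KO (193 and 440 counts, 1.30). In RO Amer2 had 5 and 11 peaks, Zfhx3 9 and 13, Brca2 8 and 8, and Cep350 7 and 9, so the gain was not seen in RO for Ttn and Brca2.

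Fewer peaks in KO were found in Muc16, a mucin, with 16 and 9 (RO 28 and 12) and in the pseudogene Smarca5-ps with 7 and 2. Amer1, a regulator of Wnt signalling, had 5 and 1 peaks at 593 and 410 input counts. Golgb1, the Golgi tether giantin, had 9 and 5 peaks, but its peaks covered 6060 bp in WT and 7102 bp in KO. Arhgap32, with 7 and 3 peaks over 2046 and 2911 bp, and Zdbf2, with 12 and 8 over 2531 and 2737 bp, had fewer but longer peaks as well. A lower number of peaks was therefore not a shorter covered length in these 3 genes.

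A peak of both lists that holds a named small RNA is shown because its borders, and not its presence, differ between the genotypes. The hairpin of Mir1896 lies in an exon of the noncoding gene 4930470G03Rik at chr13:21445160-21445240 (mm10, plus strand; sequence from RefSeq, GRCm38.p6), and the capitals mark GGACU, at bases 47 to 51 of the hairpin:
Mir1896 hairpin: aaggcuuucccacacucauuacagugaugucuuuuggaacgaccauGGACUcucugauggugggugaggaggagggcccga
In WT PA the peak, of fold 24.8, began upstream at 21445039 and covered all 81 bases. In KO PA the peak, of fold 59.9, began at base 59 of the hairpin and covered 23 bases, so the GGACU lay inside the WT peak and outside the KO peak; both ended at 21445934. RefSeq lists 1005 mouse hairpins, of which 9 overlapped a PA peak by at least 1 base. The overlap was 1 base in Mir7578, 1 in Mir7036b and 2 in Mir3057. The motif searched for was GGACU with G or A at its first base and at its second base, on the hairpin strand. Of the 9, 2 hold it anywhere in the hairpin, Mir1896 and Mir7578, against 26.4% of all hairpins. In Mir7578 the motif, from base 46, lay outside the peak, which covered base 1 only. Peak fragments come from exons of the host transcript, and mature miRNAs were not measured.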

How the data were processed

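The authors deposited whole-number counts per gene under Ensembl identifiers for the 4 input libraries, with no normalization, and a peak list for each pair of libraries. Per the file headers, each peak carries exon blocks, a fold enrichment of immunoprecipitate over input (a ratio) and a log10 false discovery rate, read here as a score. The submitters' processing notes name mm10, cutadapt 2.5, HISAT2 2.1.0 and HOMER 4.10.4 without roles; counting tool, strand, duplicates and peak caller are not given in the sources used here. PA totals were 13147239 and 9921365 counts. TMM factors over the 4 inputs were 0.892 (WT PA) and 1.09 (KO PA), and log2 ratios used CPM with a prior count of 2. Peaks overlapped at 1 bp or more of exon blocks on 1 strand. Symbols came from the peak lists (8733 of 53465 identifiers); RefSeq spans (GRCm38.p6) matched 96.5% of the 6900 named genes.

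The members and the 56 gene lists were chosen with earlier results of these data known. Named genes were, by rule, the 12 highest and 12 lowest among those with 1000 or more counts, the extremes of each list, the genes with like input and the highest-fold peak in 1 list, those with the largest change in peak number, the m6A list and the markers. Other genes, mainly from the X, short-gene and list paragraphs, were chosen after their values were seen. Some genes that the rule names are not reported here. Scripts used Python 3.11.15 with numpy, scipy, pandas and matplotlib and were tested on simulated data. RO inputs are given beside PA; the PA and RO comparisons share no library. Alternatives were other scalings, priors, count minimums and peak limits.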

Additional observations from a re-analysis of the deposited data

Results flagged for a closer look

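Esam, an endothelial adhesion gene, was lower in KO in PA, with a log2 ratio of -1.12 (290 and 122 counts), and higher in RO, with 1.50 (100 and 272 counts). It is named because the 2 cell fractions moved in opposite directions past 2-fold. In RO 9 of the 10 endothelial markers were at least 2-fold higher in KO, with a median of 2.23, against 2 of 10 in PA. The difference between the fractions was not tested, since each group is 1 library. Over all 6900 named genes 38 were past 2-fold in opposite directions, 257 were at least 2-fold higher in both fractions and 425 at least 2-fold lower in both.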

How the results depend on the processing

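No paired analysis was possible because each group holds 1 library, and for the same reason no replicate could be left out. Under scaling by total counts the number of genes at least 2-fold lower was 1124 in place of 1799. With 300 counts in either library the numbers higher and lower were 596 and 999, with 100 counts in both 670 and 979, and with 1 count in either 7393 and 6522. The KO over WT ratio of peaks, 1.32, was 1.39 at a false discovery rate under 0.05 and 1.37 at a fold of at least 5. The share of WT peaks that overlap a KO peak, 79.7%, was 82.9% and 76.6% under these limits, 60.2% with a reciprocal overlap of 50%, and 89.3% when the gene alone was required. List medians, taken relative to all named genes, kept their sign under the 7 alternatives for 11 of the 12 lists followed; the exception was the acrosome and theca list, which ran from -0.20 to 0.11. The ADAM median ran from 0.16 to 0.92 and that of the spermatid markers from 1.17 to 1.45. One alternative was added after seeing the data: with symbols from the RO lists alone, the spermatid and X medians kept their sign. The low counts of short and ADAM genes in WT limit those ratios.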
